A study of Mus musculus with 36 samples.

Results

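The nuclear genes that set the amount of mitochondrial DNA and its transcription were followed in mouse fat: the nuclear receptors Esrra and Esrrg, the transcription factors Nrf1 and Gabpa, the mitochondrial transcription factors Tfam, Tfb1m and Tfb2m, and the polymerases Polrmt and Polg. They were taken from the array by gene name among the probes that are not controls, which gave 9 genes with 18 probes out of 41174 probes on the array. Of these 18 probes 16 passed the filter on dim signals, and all 9 genes were tested among 16500 genes. The tissue was epididymal fat, a white depot in the lower abdomen, and the animals were 36 male C57BL/6J mice, adult, on a purified diet with 30% of its energy from fat. All mice ate it ad libitum during an adaptation of 3 weeks, at the end of which the 12 mice of the group t=0 were killed. The 12 mice of the group HF-AL then ate it ad libitum for 12 weeks more, and the 12 mice of the group HF-DR received it for those 12 weeks in a restricted amount, labelled as 70 energy percent, with extra vitamins and minerals. Cy5-labelled RNA of each animal was hybridised against a Cy3-labelled pool of all samples, so each value is the log2 ratio of an animal to that pool, and a difference between groups is a difference of such ratios with n = 12 animals per group. Age differs between t=0 and the later groups, and effects of the time of killing or of the last meal cannot be told apart from those of the diet here.

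Mitochondria carry a small circular genome, but the proteins that copy and transcribe it are encoded in the nucleus. The coactivators PGC-1α and PGC-1β act on estrogen-related receptors and on the factors NRF1 and GABP, which bind promoters of respiratory chain genes and of the mitochondrial transcription machinery. In the organelle, TFAM packages the DNA and, with TFB2M, loads the RNA polymerase POLRMT onto its promoters, while POLG copies the genome. In adipose tissue this programme is known from brown and beige adipocytes and from the formation of new fat cells.

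A promoter is shown for each member whose own promoter held an exact match to the NRF1 or GABP core given below. This left out Esrrg, Nrf1 and Tfb1m, and variants of these cores were not searched for. The 300 bases around each transcription start (250 before and 50 after) in the RefSeq table of GRCm38.p6 were searched on both strands for GCGCATG (core of the NRF1 site), CCGGAAG (core of the GABP site) and AAGGTCA (the site of estrogen-related receptors). These motifs do not overlap one another in the members' promoters. All 9 genes matched an entry by symbol, with 4 starts for Esrrg and 2 for Nrf1. Capitals mark the matches. The stretches lie directly before the start, except for Tfb2m, where 30 bases after it are given.
Esrra, chr19:6921809-6921908, minus strand, NRF1 core at -33: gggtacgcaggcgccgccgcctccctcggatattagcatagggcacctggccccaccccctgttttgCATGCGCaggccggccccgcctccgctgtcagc
Polrmt, chr10:79746582-79746731, minus strand, NRF1 core at -133 and GABP core at -43: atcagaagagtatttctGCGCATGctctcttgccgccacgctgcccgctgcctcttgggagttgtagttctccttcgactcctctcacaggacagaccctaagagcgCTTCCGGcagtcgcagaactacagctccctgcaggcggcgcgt
Tfb2m, chr1:179546243-179546272, minus strand, NRF1 core at 15 bases into the transcript: aggtcgttcgCATGCGCcattcgtaatgtt
Gabpa, chr16:84835024-84835123, plus strand, GABP core at -93: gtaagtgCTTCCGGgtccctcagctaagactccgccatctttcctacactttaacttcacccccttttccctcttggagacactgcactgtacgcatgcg
Tfam, chr10:71238045-71238144, minus strand, GABP core at -47: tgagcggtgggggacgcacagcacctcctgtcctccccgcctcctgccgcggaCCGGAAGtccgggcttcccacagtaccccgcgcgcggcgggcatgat
Polg, chr7:79466274-79466373, minus strand, GABP core at -38: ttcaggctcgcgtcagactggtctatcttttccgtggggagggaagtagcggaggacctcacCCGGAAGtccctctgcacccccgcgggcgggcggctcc
The NRF1 core was found in at least 1 window of 3 of the 9 genes, against 4.41% of the 27025 genes of the table (3.91% of its 32851 single promoters). The GABP core was found in 4 of the 9, against 9.93% of genes (8.86% of promoters). The AAGGTCA motif was in no window of the 9 genes, against 5.38% of genes (4.72% of promoters). The members were chosen as a pathway, and their windows are mostly rich in G and C (59.3% to 70.3% in Esrra, Gabpa, Tfam, Tfb2m and Polg and 52% in Polrmt, against 53.8% over all promoters). A match is a run of letters, not a measured binding site.

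The tissue label was set beside fixed markers. All 5 markers of mature adipocytes on the list (Adipoq, Plin1, Lep, Cidec and Fabp4) passed the signal filter. So did all 5 macrophage and all 5 fibroblast markers, so passing it does not tell tissues apart and is no test of the label. The share of probes well above background ran from 45.2% to 86.6% over the 36 arrays and precision is limited by the 12 arrays in each group. In 7 arrays (t=0 6, HF-AL 5, 7 and 9, HF-DR 7, 8 and 9), chosen after their values were seen, transcripts of the male reproductive tract stood out. Differences between groups are given without them where they matter. The arrays lay on 21 slides, of which 3 held both HF-DR and HF-AL.

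HF-DR was compared with HF-AL to ask how restriction of the same diet changed these genes. Esrra, Tfb2m, Polrmt and Esrrg rose, the probe used for Gabpa fell, and Nrf1, Tfam, Tfb1m and Polg did not pass the test (limma, adjusted p under 0.05 over all genes). The largest differences among the members were those of Esrra, 1.84-fold, and Tfb2m, 1.75-fold. Of the 9 members 5 were called, where 64.8% of all 16500 genes were called in this comparison, so the count is near the background and is not a result about the members. The 4 that rose stand beside 28.8% of all genes that rose and the 1 that fell beside 35.9% that fell. The median difference over the 9 members was 0.14 on the log2 scale, and that over all genes was -0.037.

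**Figure D1:**
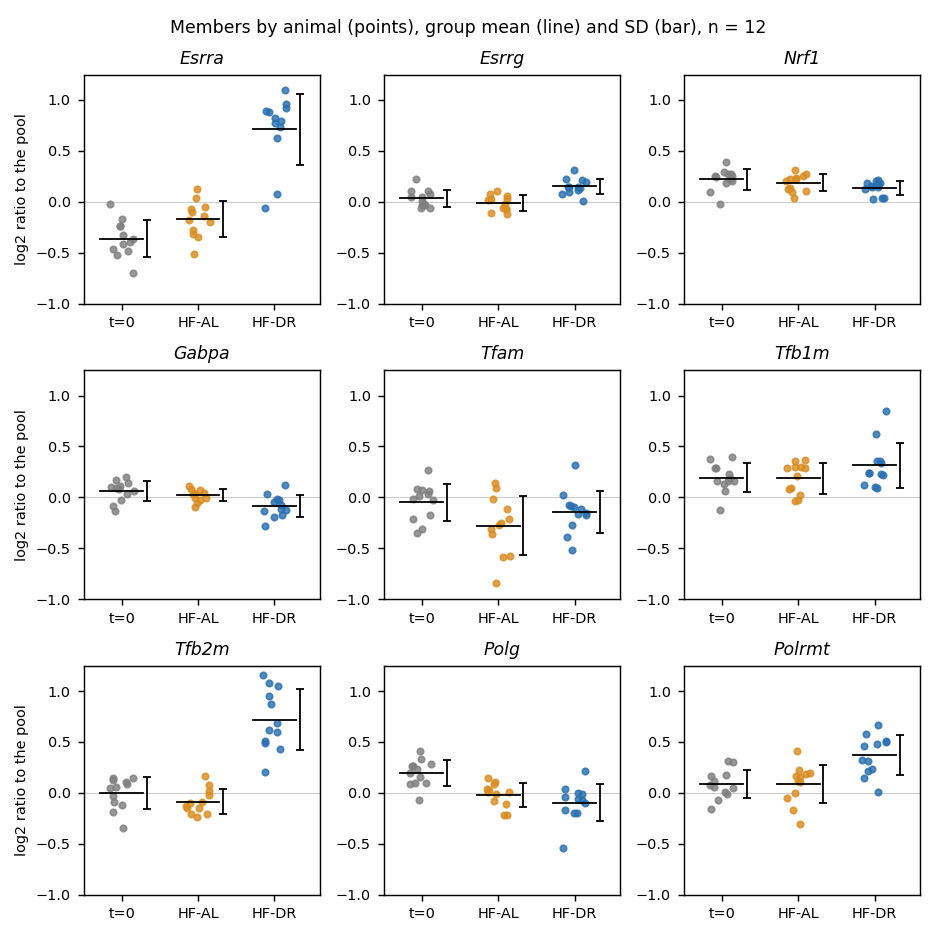
Log2 ratio to the pool (vertical axis) of each animal in t=0, HF-AL and HF-DR for the 9 members, with a line at the group mean and a bar for its SD (n = 12). For Tfb2m all 12 HF-DR animals lie above every animal of the other groups, and for Esrra 10 of the 12 lie above the highest HF-AL animal.

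Esrra encodes the receptor ERRα, an orphan nuclear receptor that is a main partner of the PGC-1 coactivators. Its brightest probe (chr19:6978153-6978212, mm8, minus strand) read -0.51 to 0.13 in HF-AL, with a median of -0.16, and -0.065 to 1.10 in HF-DR, with a median of 0.81. Of the 12 HF-DR animals 10 lay above the highest HF-AL animal, and the remaining pair, arrays 8 and 9, lay near the HF-AL level at -0.065 and 0.08. Both are among the 7 arrays with tract transcripts. The difference was 0.88 (SE 0.10, adjusted p = 1.08e-09), and without the 7 arrays it was 1.03 (adjusted p = 1.16e-12). Within the 3 slides that held both groups it was 0.97 to 1.23. A dimmer Esrra probe that lies 5571 bases upstream in the genome also rose, by 0.43 (SE 0.08, adjusted p = 1.19e-05 over all probes), so both probes of this gene rose.

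Esrrg encodes ERRγ, which in muscle and brown fat supports oxidative genes. Its only probe above the filter (chr1:189911946-189912005, mm8, plus strand) read -0.12 to 0.10 in HF-AL, with a median of -0.0026, and 0.0052 to 0.31 in HF-DR, with a median of 0.14. The groups overlapped, with 9 of 12 HF-DR animals above the highest HF-AL animal. The difference was 0.16 (SE 0.037, adjusted p = 0.000222). This probe is dim, well above background on 10 of 12 HF-DR arrays, and a second Esrrg probe did not pass the filter. The second probe, not tested, read -0.25 to 1.76 in HF-AL (median 0.0019) and -0.24 to 0.29 in HF-DR (median 0.031). Its HF-AL values were highest on arrays 5, 7 and 9, which carry tract transcripts. Within slides the difference of the kept probe shrank to 0.014 to 0.087, and with the slide as a fixed block it was 0.12 (SE 0.059, adjusted p = 0.109).

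Nrf1 encodes nuclear respiratory factor 1, which binds many promoters of respiratory chain and mitochondrial import genes. Its brighter probe (chr6:30102531-30102590, mm8, plus strand) read 0.039 to 0.31 in HF-AL, with a median of 0.22, and 0.025 to 0.22 in HF-DR, with a median of 0.15. The ranges overlapped, with 3 of 12 HF-DR animals below the lowest HF-AL animal and 1 above the HF-AL median. The difference was -0.051 (95% interval -0.13 to 0.028, adjusted p = 0.256). The other Nrf1 probe, 36380 bases upstream in the genome, rose by 0.23 (SE 0.041, adjusted p = 7.38e-06), from -0.16 to 0.20 in HF-AL to 0.071 to 0.40 in HF-DR. The difference between the responses of these Nrf1 probes was 0.28 (SE 0.042, two-sided permutation test with 100000 resamples, p = 1e-05, the smallest it can give, adjusted p = 5.4e-05 over 27 such tests). It was of the same sign on all 3 shared slides, from 0.15 to 0.37.

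Of the 16 kept probes of the members 10 rose and 1 fell, beside 63.5% of all kept probes called (30.4% that rose and 33.1% that fell). Gabpa encodes the DNA-binding subunit of GABP, also known as NRF2. Its 3 probes, all on the plus strand of chromosome 16 and all listed under the same Gabpa mRNA, did not move together. The probe nearest the 3′ end (chr16:84746169-84746228, mm8), which is the brightest and so stands for the gene, read -0.092 to 0.11 in HF-AL, with a median of 0.033, and -0.28 to 0.12 in HF-DR, with a median of -0.094. The groups overlapped, with 6 of 12 HF-DR animals below the lowest HF-AL animal. It fell by 0.11 on the log2 scale (difference -0.11, SE 0.041, adjusted p = 0.0233). That call is lost in several settings, among them the fit without the 7 arrays with tract transcripts (adjusted p = 0.0553), the slide as a fixed block (adjusted p = 0.21) and the fit without array HF-DR 12 (-0.088, adjusted p = 0.0528).

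The 2 Gabpa probes upstream of it rose. The first (chr16:84743038-84743097) read -0.18 to 0.28 in HF-AL and 0.19 to 0.83 in HF-DR, a difference of 0.53 (SE 0.061, adjusted p = 1.94e-09 over all probes). The next, 1019 bases on (chr16:84744057-84744116), read -0.17 to 0.42 in HF-AL and 0.37 to 1.17 in HF-DR, a difference of 0.78 (SE 0.072, adjusted p = 7.1e-12). In the first 10 of 12 HF-DR animals and in the second 11 of 12 lay above the highest HF-AL animal. The upstream probes differed from the 3′ probe in their response by 0.64 (SE 0.08) and 0.89 (SE 0.094), each with p = 1e-05 in the two-sided permutation test, the smallest it can give (adjusted p = 5.4e-05). Within the 3 shared slides these contrasts were 0.64 to 0.71 and 0.82 to 0.99. Probes with opposite calls are found in 481 of 5764 genes with several kept probes (8.34%) in this comparison, so Gabpa is not alone in this. With the mean of its kept probes Gabpa rose by 0.40 (adjusted p = 1.95e-10), so the direction of the gene depends on the probe.

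**Figure D2:**
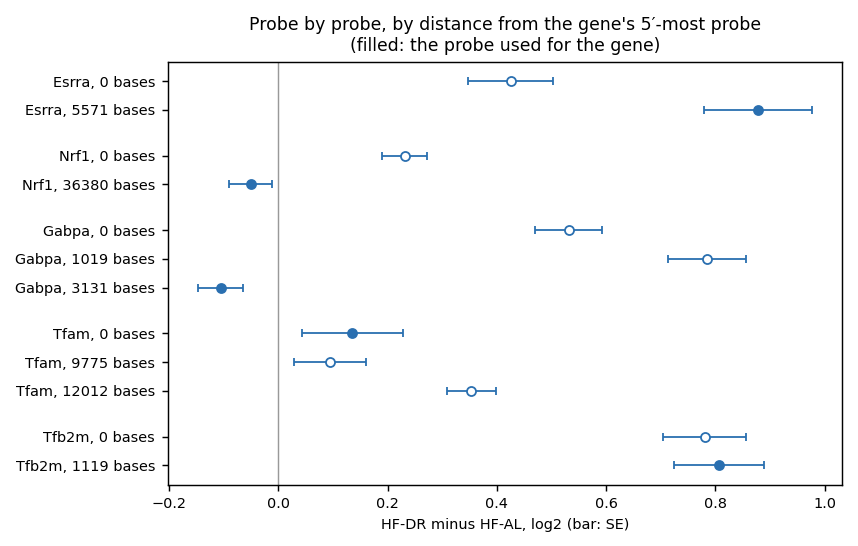
Difference of HF-DR from HF-AL (horizontal axis, log2) for each kept probe of the 5 members with several, by its distance in genomic bases from the gene's most 5′ probe, with a bar for the SE (n = 12 per group) and a filled point for the probe used. The Tfb2m probes lie together at 0.78 and 0.81, while the Gabpa probes lie at 0.53, 0.78 and -0.11.

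Tfb2m encodes the factor that melts mitochondrial promoters together with TFAM and POLRMT. Its brightest probe (chr1:181364779-181364838, mm8, minus strand) read -0.23 to 0.17 in HF-AL, with a median of -0.11, and 0.21 to 1.16 in HF-DR, with a median of 0.65. All 12 HF-DR animals lay above all 12 HF-AL animals. Tfb2m was the only member whose probe used for the gene had no overlap between these groups, which held, with HF-DR higher, for 6.27% of all genes. The difference was 0.81 (SE 0.083, adjusted p = 1.24e-10), with 0.61 to 0.89 within slides. The other Tfb2m probe gave 0.78 (SE 0.076, adjusted p = 3.37e-11), also with no overlap, and the responses of the pair differed by -0.026 (SE 0.072, permutation test, adjusted p = 0.782).

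Tfam encodes mitochondrial transcription factor A, which coats and bends mitochondrial DNA. Its brightest probe (chr10:70633430-70633490, mm8, minus strand) is listed under an mRNA entry that covers a testis-specific form as well as the mitochondrial one. It read -0.84 to 0.14 in HF-AL, with a median of -0.26, and -0.52 to 0.32 in HF-DR, with a median of -0.13. The groups overlapped widely and the spread within HF-AL was the largest of any member there (SD 0.29). The difference was 0.14 (95% interval -0.051 to 0.32, adjusted p = 0.196), and its sign differed between slides (-0.37 to 0.096). On the series matrix values this probe was called, with a rise of 0.29 (adjusted p = 0.00405). The Tfam probe nearest the 3′ end, 12012 bases further on and dimmer (chr10:70621418-70621477), read -0.13 to 0.22 in HF-AL and 0.22 to 0.66 in HF-DR. The 12 animals of either group did not overlap, but only just (highest HF-AL 0.219, lowest HF-DR 0.2217). The share of all probes without overlap was not computed. This 3′ probe rose by 0.35 (SE 0.045, adjusted p = 1.76e-08), while the probe between it and the brightest gave 0.095 (SE 0.065, adjusted p = 0.208). The responses of the 3′ and the middle Tfam probe differed (-0.26, SE 0.082, permutation test, adjusted p = 0.00804), but the sign of this contrast differed between the 3 shared slides (-0.83 to 0.22). Those of the 3′ and the brightest probe did not pass the test (-0.22, SE 0.13, adjusted p = 0.158).

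Tfb1m, a paralogue of Tfb2m, encodes a methyltransferase of mitochondrial ribosomal RNA. Its kept probe (chr17:3475872-3475931, mm8, minus strand) read -0.04 to 0.37 in HF-AL, with a median of 0.25, and 0.094 to 0.85 in HF-DR, with a median of 0.24. The medians were close, and the 2 highest HF-DR values, 0.85 and 0.62, came from arrays 8 and 9, the same arrays that were low for Esrra. The difference was 0.13 (95% interval -0.017 to 0.27, adjusted p = 0.117), it was 0.037 without the 7 arrays with tract transcripts, and it was below 0 on all 3 shared slides (-0.21 to -0.014).

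Polrmt encodes the RNA polymerase of mitochondria. Its single probe (chr10:79139281-79139340, mm8, minus strand) read -0.30 to 0.41 in HF-AL, with a median of 0.14, and 0.013 to 0.66 in HF-DR, with a median of 0.39. The groups overlapped, with 11 of 12 HF-DR animals above the HF-AL median and 6 above its highest animal. It rose by 0.28 (SE 0.071, adjusted p = 0.000766), with 0.059 to 0.54 within slides. Polg encodes the catalytic subunit of the DNA polymerase of mitochondria, and its single probe (chr7:79323366-79323425, mm8, minus strand) read -0.22 to 0.14 in HF-AL, with a median of 0.0055, and -0.54 to 0.21 in HF-DR, with a median of -0.067. These ranges overlapped and the difference was -0.075 (95% interval -0.20 to 0.047, adjusted p = 0.277).

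**Figure D3:**
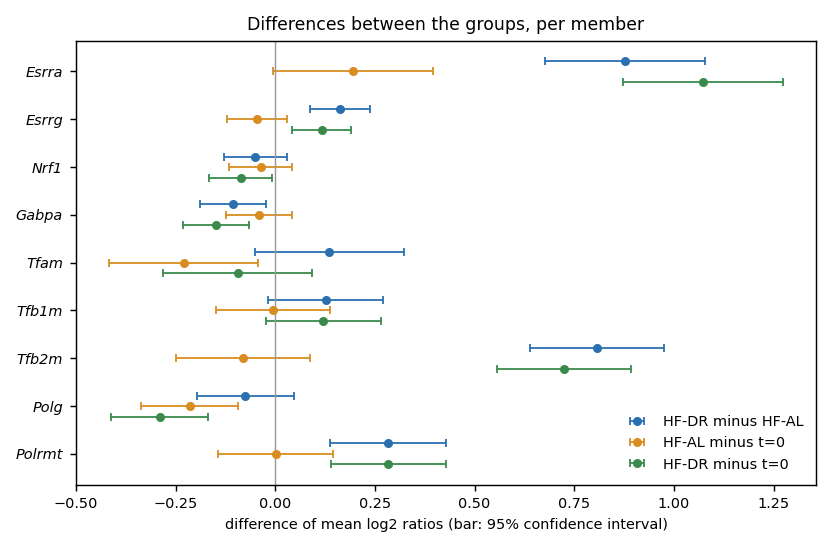
Difference of mean log2 ratios (horizontal axis) between the 3 pairs of groups for each member (rows), with 95% confidence intervals (n = 12 per group). Esrra and Tfb2m stand apart in both comparisons that involve HF-DR, while the differences of HF-AL from t=0 run from -0.23 to 0.19.

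HF-AL was set against t=0 to see what 12 more weeks of ad libitum feeding changed, with age moving along. None of the 9 members was called (0 of 9 by limma, with 2 at an unadjusted p under 0.05), beside 0.697% of all genes (0.467% that rose and 0.23% that fell). The 2 are Polg and Tfam. Polg read -0.073 to 0.41 at t=0, with a median of 0.21, against a median of 0.0055 in HF-AL, and no HF-AL animal lay above the t=0 median. Polg was lower in HF-AL on all 9 slides that held both groups (-0.445 to -0.0043). Its difference of -0.21 (SE 0.06) had an adjusted p of 0.0784, and it passed in 4 other settings (-0.25 to -0.21, adjusted p 0.0101 to 0.0298), as well as without array t=0 4 (adjusted p = 0.0489) or HF-DR 9 (adjusted p = 0.0317). Tfam read -0.35 to 0.27 at t=0, with a median of 0.00026, and differed by -0.23 (SE 0.092, adjusted p = 0.249). All ranges of the other members overlapped between t=0 and HF-AL. Esrrg read -0.063 to 0.23 at t=0 (median 0.025), Nrf1 -0.019 to 0.39 (median 0.25) and Gabpa -0.13 to 0.20 (median 0.091). Tfb1m read -0.13 to 0.39 (median 0.18), Polrmt -0.16 to 0.32 (median 0.065) and Tfb2m -0.35 to 0.15 (median 0.055). Esrra read -0.70 to -0.017 at t=0, with a median of -0.38, and was higher by 0.19 in HF-AL (SE 0.099, adjusted p = 0.386) and did not pass the test, although the sign was the same on all 9 slides that held both groups (0.042 to 0.45), with 11 of 12 HF-AL animals above the t=0 median and overlapping ranges.

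HF-DR against t=0 shares its animals with both comparisons above, so its values are given beside them and not as a second test. Here 4 members rose (Esrra, Tfb2m, Polrmt and Esrrg) and 2 fell (Polg and the 3′ probe of Gabpa), beside 61.8% of all genes called (28.8% that rose and 33% that fell), again near the background. Esrra differed by 1.07 (adjusted p = 9.22e-12), Tfb2m by 0.72 (adjusted p = 1.46e-09), Polrmt by 0.28 (adjusted p = 0.000775) and Esrrg by 0.12 (adjusted p = 0.00649). With the slide as a fixed block 4 members were called, since Esrrg (0.064, adjusted p = 0.305) and the fall of Gabpa (adjusted p = 0.0655) no longer passed. All t=0 animals lay below all HF-DR animals for Tfb2m. A gap of this kind with HF-DR higher was found in 7.54% of all genes. Polg was lower by 0.29 (-0.29, SE 0.06, adjusted p = 7.5e-05), with 5 of 12 HF-DR animals below the lowest t=0 animal and a difference below 0 on all 6 slides that held both groups. Nrf1 differed by -0.087 (adjusted p = 0.0506), Tfam by -0.094 (adjusted p = 0.386) and Tfb1m by 0.12 (adjusted p = 0.138), none of which passed. Nrf1 was called in 6 other settings, among them scaling between arrays (-0.15, adjusted p = 0.00159), and in 9 of the 36 fits without a single array, where it was -0.098 to -0.087 without any of 8 of them and -0.11 without t=0 2 (adjusted p = 0.00937).

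The coactivators and cofactors that act with these factors moved both ways between HF-DR and HF-AL. Of 17 listed partner regulators 14 were tested, 2 rose and 7 fell, with a median of -0.18, so the share called was close to the 64.8% of all genes (28.8% that rose and 35.9% that fell). The 2 that rose were the PGC-1 coactivators. Ppargc1a (PGC-1α) rose by 1.18 (SE 0.15, adjusted p = 1.91e-08), from a mean of -0.22 ± 0.49 (SD, n = 12) in HF-AL to 0.96 ± 0.36 in HF-DR. Ppargc1b (PGC-1β) rose by 0.82 (SE 0.16, adjusted p = 2.89e-05), from -0.31 ± 0.46 to 0.51 ± 0.33. Among those that fell, Nrip1, a corepressor of oxidative genes in fat, differed by -0.91 (SE 0.079), Ncor1, a nuclear receptor corepressor, by -0.50 (SE 0.069), and Creb1, a cAMP-responsive factor, by -0.27 (SE 0.051). The partner subunits of GABP, Gabpb1 and Gabpb2, were not called.

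The machinery around the members moved more often up than down. Of 23 tested genes of mitochondrial transcription and RNA processing, out of 24 listed, 15 rose and 1 fell, with a median of 0.45 beside -0.037 for all genes, of which 28.8% rose and 35.9% fell. Fastkd3, which acts on mitochondrial mRNA, rose by 1.09 (SE 0.058), Trmt10c, a subunit of mitochondrial RNase P, by 0.84 (SE 0.062), and Ptcd2 by 0.77 (SE 0.05), while Mterf1a, a termination factor, fell (-0.27, SE 0.054). Of 17 genes of mitochondrial DNA replication and maintenance, all tested, 8 rose and 5 fell, with a median of 0.11, beside the same shares of all genes. Atad3a, a membrane protein tied to nucleoids, rose by 0.93 (SE 0.067), and Endog and Lig3, a nuclease and a ligase, by 0.65 (SE 0.073) and 0.55 (SE 0.082). Polg2, the accessory subunit of the polymerase whose catalytic subunit is Polg, fell (-0.32, SE 0.082), as did Dna2 (-0.40, SE 0.082) and Rrm2b (-0.22, SE 0.056). Against t=0 the counts in HF-DR were 17 up and 1 down for transcription and RNA processing and 5 up and 5 down for replication and maintenance. With the slide as a fixed block the replication list gave 4 up and 1 down in HF-DR against HF-AL.

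Targets of the regulators and transcripts of the mitochondrial genome were mostly higher in HF-DR. Among all genes 28.8% rose and 35.9% fell, which stands beside the counts of the 3 lists here. Of 14 known targets of NRF1 or GABP, 13 rose and 0 fell (median 0.72). The probes used for Nrf1 and Gabpa did not rise, while the other Nrf1 probe (0.23) and the upstream Gabpa probes (0.53 and 0.78) did. Cycs, the electron carrier cytochrome c, rose by 1.39 (SE 0.094), Cox7c by 0.86 (SE 0.065) and Sdhd by 0.77 (SE 0.06). Of 8 targets of estrogen-related receptors, 6 rose and 0 fell (median 0.64), among them Idh3a (1.20, SE 0.10) of the citric acid cycle, with Cycs on both lists. Of 15 genes of the mitochondrial genome 3 were tested, and all 3 rose: CYTB by 1.01 (SE 0.11), COX2 by 0.98 (SE 0.12) and ND4L by 0.81 (SE 0.098). The file places the COX2 probe on chromosome 1 and not on the mitochondrial genome, so what it reads is uncertain. In HF-AL against t=0 no gene of any of these 6 lists was called, and no list was given a test of its own. Without the 7 arrays with tract transcripts the counts between HF-DR and HF-AL were 2 up and 7 down, 17 up and 1 down, 8 up and 5 down, 13 up and 0 down, 7 up and 0 down, and 3 up and 0 down, in the order in which the lists are given here.

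**Figure D4:**
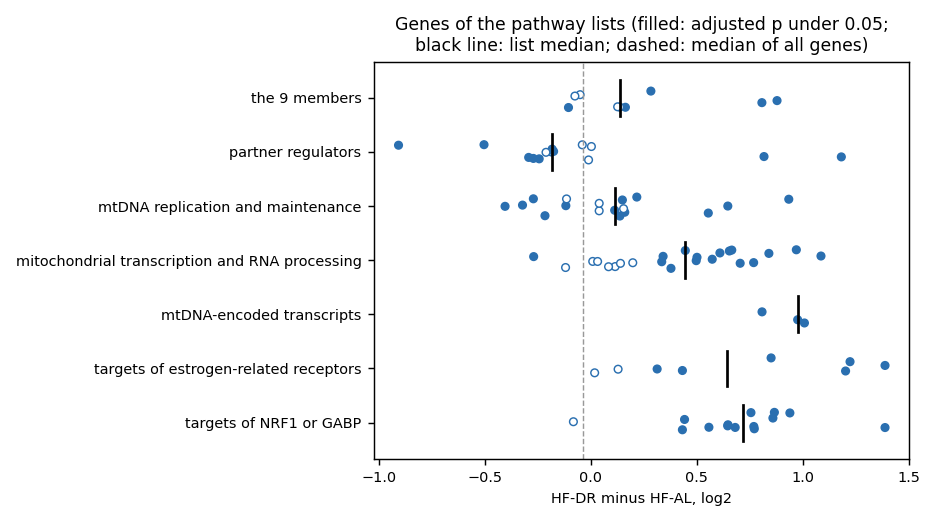
Difference of HF-DR from HF-AL (horizontal axis, log2) for each tested gene of the members and of 6 pathway lists, filled where the adjusted p was under 0.05, with the list median as a black line and the median of all genes dashed. The medians run from -0.18 in the partner regulators to 0.98 in the 3 listed transcripts of the mitochondrial genome, where the median is the COX2 probe itself.

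Markers of cell types moved between HF-DR and HF-AL too, and in bulk tissue fewer cells of a type and less RNA per cell cannot be told apart. The mean over 5 markers of mature adipocytes was -0.08 to 0.63 over HF-AL animals and -1.37 to 0.067 over HF-DR animals, and 4 of the 5 fell. The 4 tested of 5 markers of brown and beige adipocytes all rose, from a mean of -1.11 to -0.42 in HF-AL to 0.50 to 1.93 in HF-DR, with Ppargc1a among them and Ucp1, the defining gene, below the signal filter. All 5 macrophage and all 5 fibroblast markers fell (HF-AL means -0.15 to 0.33 and 0.066 to 0.29, HF-DR means -1.36 to -0.48 and -1.96 to -1.01). Of 5 markers of skeletal muscle, a tissue rich in Esrra and Ppargc1a, Ckm, Myh4 and Tnnt3 did not pass the filter, and of the remaining 2, 1 fell. Of 4 tested tract markers 3 rose, with means of -6.07 to -4.45 in HF-AL and -5.84 to 5.87 in HF-DR. Of 4 sperm markers none was called, but their means reached higher in HF-AL (-0.86 to 2.45) than in HF-DR (-0.72 to -0.33). The 3 red blood cell markers rose (HF-AL -1.47 to 0.49, HF-DR -0.74 to 1.30), 1 of 4 endothelial and 3 of 4 mesothelial markers fell. Their part in the differences of the members was not tested, except that the 4 rises held without the 7 arrays with tract transcripts.

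Among animals of a group some pairs of members varied together and some in opposite directions. Deviations from the group means were correlated over the 36 arrays for all 36 pairs of members. By both Pearson's r and Spearman's rho 5 pairs passed (permutation within groups, 100000 resamples, adjusted over the 36 pairs). The share of passing pairs among all genes was not computed, so this count has no background beside it. The correlations were also not computed without the arrays with tract transcripts, among them HF-DR 8 and 9. Each member was read by the probe used for its gene. The pairs with Tfam therefore rest on its brightest probe, and its other probes were not correlated. The Tfam probe nearest the 3′ end was lowest in HF-DR on arrays 8 and 9 (both 0.22), where Esrra was lowest too (-0.065 and 0.08). Polg went with Esrra (r = 0.63, p = 0.00021, adjusted p = 0.00456; rho = 0.53, p = 0.00146, adjusted p = 0.0131) and with Tfb2m (r = 0.61, p = 0.00037, adjusted p = 0.00456; rho = 0.59, p = 0.00039, adjusted p = 0.00702). Without the 2 arrays farthest from the median of Esrra, r of Polg with Esrra was 0.53. With the 2 arrays farthest from the median of Tfb2m left out, r of Polg with Tfb2m was 0.55. Tfam went with Tfb1m (r = 0.48, p = 0.0032, adjusted p = 0.0183; rho = 0.52, p = 0.00208, adjusted p = 0.015) and against Esrra (r = -0.54, p = 0.00038, adjusted p = 0.00456; rho = -0.52, p = 0.00109, adjusted p = 0.0131) and Polg (r = -0.54, p = 0.00088, adjusted p = 0.00792; rho = -0.58, p = 0.00029, adjusted p = 0.00702). Without the 2 farthest arrays these were 0.49, -0.43 and -0.56. The sign was the same within each of the 3 groups for all 5 pairs. Slides held too few arrays for a value within each.

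The genes whose pattern was most like a member's over the 36 arrays, after removal of the group means, are given as a description. Esrra was most like Mgat4b (Pearson r = 0.89) and Pcyt2 (r = 0.88), and within HF-DR these r values were 0.96 and 0.96, where arrays 8 and 9 stand apart. The brightest Tfam probe was most like Cox17 (r = 0.95) and H1f10 (r = 0.93). Polg was most like Nol6 (r = 0.86) and Lyplal1 (r = 0.83), Tfb2m like Abhd3 (r = 0.80) and Qdpr (r = 0.79), and Tfb1m like Fem1a (r = 0.80) and Cggbp1 (r = 0.78). The likeness was lower for the other members. Polrmt was most like Cecr2 (r = 0.70) and Esrrg like Fos (r = 0.65). The 3′ probe of Gabpa was most like Stam (r = 0.68) and the brighter Nrf1 probe like Ylpm1 (r = 0.67), and the other probes of these genes were not compared. Of all members Nrf1, read by its brighter probe, followed the quality of the array most. The r between its deviation and the share of probes above background was -0.50 over the 36 arrays. Array t=0 2 had the highest share, 86.6%, and the lowest Nrf1 value of its group, -0.019, and r was not computed without it.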

How the data were processed

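Per the labels, RNA of each animal was labelled with both dyes, and the Cy3 products were pooled into the common reference. The intensity values, which the authors deposited as scanner output without normalization, are the mean signal of a spot and its median local background in each channel, on a linear scale. Spots were quantified by Agilent Feature Extraction (version 9.5.3.1, per the file headers). The authors also deposited a series matrix of log2 values, used as an alternative. Over probes those values correlated at 0.982 to 0.994 with the log2 Cy5 signal of the same array and at 0.0473 to 0.204 with the log2 ratio, and their medians ran from 9.26 to 9.29. How they were scaled is not stated in the labels or headers. Probe coordinates are on mm8, per the file headers, and exon or UTR positions were not analysed here. Every array has sample in Cy5 and pool in Cy3, so no dye effect could be measured.

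Background was corrected with normexp (offset 50, fitted without 75 specks, spots with a net signal under -50), log ratios were normalized within arrays by loess with 4 iterations, and spots flagged as outliers were left out. Duplicate spots were averaged. Probes entered the tests where Cy5 exceeded background clearly on 9 or more arrays of at least 1 group, and the probe with the highest mean intensity stands for its gene. The fit was made in R (version 4.3.3) with limma (version 3.58.1) and data.table (version 1.17.8) over all 36 arrays, with group means and no block, two-sided, with Benjamini-Hochberg adjustment over 16500 genes, or over 24706 probes where single probes are given. A gene is called at an adjusted p under 0.05. Permutation tests and figures were made in Python 3.11.15 (numpy 2.4.6, pandas 2.3.3, scipy 1.17.1, matplotlib 3.10.9). The fit was tested on simulated data. The labels number the animals within a group, and the highest correlation between 2 arrays of a group was 0.939.

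The members, gene lists, markers and tests were chosen with earlier results of these data known. The genes named are all members, Ppargc1a and Ppargc1b and, except for 1 gene not reported here, of each list up to 3 genes in each direction with the smallest adjusted p between HF-DR and HF-AL, and the 2 genes most like each member. Gabpb1, Gabpb2 and single markers are named outside that rule, after their values were seen.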

Additional observations from a re-analysis of the deposited data

How the results depend on the processing

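The rises of Esrra, Tfb2m and Polrmt in HF-DR against HF-AL were called in all 14 alternative settings that could change them, besides leaving out single arrays, at 0.65 to 1.05, 0.67 to 0.93 and 0.21 to 0.35. With the mean of the kept probes of a gene, directions turned: Nrf1 (0.0903) and Gabpa (0.404) in HF-DR against HF-AL and Gabpa (0.355) and Tfam (0.117) in HF-DR against t=0 were higher in HF-DR and called, where the brightest probe gave a value below 0. With that mean 7 members rose and 0 fell in HF-DR against HF-AL. With the slide as a fixed block 3 members changed between HF-DR and HF-AL, as Esrrg and Gabpa were no longer called, and the cause was not tested. Aquantile between arrays left the log ratios as they were, so it tests nothing here. As a random block the slide had a consensus correlation of 0.0336.

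Between HF-AL and t=0 the members called were 1, always Polg, with Feature Extraction processed signals, with scaling between arrays, with array quality weights and with only those 2 groups in the fit. Genes called there, 115 as reported, were 188, 532, 759 and 305 in these 4 settings, 71 without a filter on dim probes and 197 without the 7 arrays with tract transcripts, and the cause was not tested. Leaving out each array in turn gave 4 to 5 members for HF-DR against HF-AL, 0 to 1 for HF-AL against t=0 and 6 to 7 for HF-DR against t=0. It gave 10447 to 10949, 62 to 219 and 9920 to 10449 genes. The genes between HF-AL and t=0 moved by over 1.5 times without HF-AL 2 (62), 9 (74), 10 (175) or 12 (187), t=0 5 (69) or 9 (75), or HF-DR 8 (219). A fit without HF-DR 5 and t=0 2, chosen after seeing the data, gave 5, 0 and 7 members.

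Replicate numbers mark different animals and were not taken to pair the samples, as not every pair correlated over 0.1. Deviations of same-numbered arrays correlated at -0.137 to 0.399 (HF-DR with HF-AL, median 0.204, 9 of 12 over 0.1), -0.466 to 0.294 (HF-AL with t=0, 2 of 12) and -0.191 to 0.0396 (HF-DR with t=0, 0 of 12). Over array pairs of any group and number the median r was 0.00416 on different slides and 0.0533 on the same slide. Same-numbered HF-DR and HF-AL arrays were thus more alike than most pairs, and what they share was not tested. With the replicate block 5, 0 and 7 members and 10647, 126 and 10216 genes were called in the 3 comparisons, and among the members only Nrf1 in HF-DR against t=0 changed its call (-0.087, adjusted p = 0.0424). The scan day could not be fitted because all arrays share 1 day.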
